A study of Mus musculus with 8 samples.

Results

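Deubiquitinases of the ubiquitin-specific protease (Usp) and ubiquitin C-terminal hydrolase (Uchl) families were examined in retinas of aged mice. Members were genes whose symbol is Usp with a number and at most 1 letter, or Uchl with 1 digit, and each probe was assigned by its accession on the array to a RefSeq gene table of assembly GRCm38.p6. The table held 54 such genes, of which 53 had a probe, with 91 of the 56605 probes on the array. Retention required a signal well above background on all measured arrays of 1 genotype or both. This left 84 probes of 49 members among 37085 retained probes and 16093 named genes. Usp27x had no probe, and Usp26, Usp43, Usp50 and Usp9y were not well above background on any array. Extra probes of Usp35, Usp44 and Usp53 were not retained either, although each of these genes had another probe that was.

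Whole-retina RNA from 4 samples labelled as homozygous Mrp4 knockout and from 4 wild-type samples was hybridized, each to 1 one-color array. Mice were 46 to 55 weeks old by the labels, the knockout mice were on a C57BL/6J background, and no treatment is named for either genotype. The methods name tissue of 3 mice and 4 samples for each genotype without saying whether a sample was a pool, so the p-values measure the spread between these samples. Signals are given below as quantile-normalized log2 intensity, differences as Mrp4-null minus wild-type, and arrays by their labelled genotype and sample number.

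Ubiquitin is a small protein that is attached to other proteins by a cascade of activating (E1), conjugating (E2) and ligating (E3) enzymes, and chains of it can mark a protein for the proteasome. Deubiquitinases cut ubiquitin off again. Usp enzymes form the largest family and mostly act on ubiquitin joined to proteins, whereas Uchl enzymes share a compact hydrolase fold suited to small adducts. UCHL1 is an abundant protein of neurons and is widely used to mark them, in the retina including ganglion and horizontal cells.

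Abcc4, the gene that encodes MRP4, an exporter of organic anions and cyclic nucleotides, was read first as a check of the labels. Its probe gave 10.84, 10.71, 10.64 and 10.80 on Mrp4-null 1 to 4 and 6.62, 7.13, 6.54 and 7.02 on wild-type 1 to 4. The signal was higher by 3.92 (SE 0.14, limma adjusted p = 1.36e-05) on the arrays labelled Mrp4-null. This goes against the direction that a knockout label implies, and whether the probe lies outside the deleted part is not given in the sources used here. Every direction reported here is therefore that of the labels. The slide held all 8 arrays, and its rows separate the genotypes, so row and genotype cannot be told apart. Between 66.0% and 69.9% of probes were well above background on an array, no spot was saturated, and none of the member spots was marked as an outlier. The 8 rod, 6 cone, 7 bipolar, 7 Muller glia and 10 ganglion cell markers listed for the tissue were all retained, as the retina label implies.

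Of all members, Uchl1 alone passed the test, and it was lower on the arrays labelled Mrp4-null. Its probe gave 14.94, 15.13, 14.82 and 14.90 on Mrp4-null 1 to 4, and 15.44, 15.67, 15.64 and 15.70 on wild-type 1 to 4. The highest Mrp4-null array lay below the lowest wild-type array. Means were 14.95 ± 0.13 (SD, n = 4) and 15.61 ± 0.12 (SD, n = 4), a difference of -0.67 (SE 0.10, 95% interval -0.89 to -0.44), which is 1.59-fold lower. The limma adjusted p was 0.0234 over all retained probes, and the exact two-sided permutation test over the 8 arrays gave p = 0.0286, the smallest it can give. The local pooled error test named in the methods gave an adjusted p of 1.02e-05. Because members were chosen with earlier results of these same samples known, the Uchl1 call is not independent evidence of the direction. In bulk tissue, fewer cells of a type and less RNA per cell cannot be told apart.

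The Uchl1 call lay close to its threshold. It was kept in 10 of 19 alternative analyses, and the difference lay between -0.73 and -0.62 in all of them. Scaling each array to its 75th percentile gave -0.69 with a limma adjusted p of 0.102, and leaving out Mrp4-null 1, 3 or 4 or wild-type 2, 3 or 4 gave limma adjusted p-values from 0.0813 to 0.103. With the sample number as a block the limma adjusted p was 0.203, and without Mrp4-null 2 and wild-type 3 together it was 0.0621. The call stood without Mrp4-null 2 alone and without wild-type 1.

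Upstream sequence is shown for 3 Uchl genes so that the start region of the member that fell can be read beside those of members that did not pass the test. The sequences are from RefSeq (GRCm38.p6, plus strand, 5′ to 3′), end at the base before the annotated gene, and carry CG dinucleotides in capitals. They cover chr5:66675871-66676120 for Uchl1, chr14:101653717-101653891 for Uchl3 and chr1:143777028-143777233 for Uchl5.
Uchl1: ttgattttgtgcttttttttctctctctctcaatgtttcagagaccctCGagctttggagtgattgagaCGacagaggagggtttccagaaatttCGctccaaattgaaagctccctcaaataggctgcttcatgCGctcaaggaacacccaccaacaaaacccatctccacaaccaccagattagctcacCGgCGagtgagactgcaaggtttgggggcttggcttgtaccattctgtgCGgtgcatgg
Uchl3: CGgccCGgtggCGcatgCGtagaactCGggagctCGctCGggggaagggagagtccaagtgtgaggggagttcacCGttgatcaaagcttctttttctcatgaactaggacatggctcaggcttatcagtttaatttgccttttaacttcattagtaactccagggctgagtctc
Uchl5: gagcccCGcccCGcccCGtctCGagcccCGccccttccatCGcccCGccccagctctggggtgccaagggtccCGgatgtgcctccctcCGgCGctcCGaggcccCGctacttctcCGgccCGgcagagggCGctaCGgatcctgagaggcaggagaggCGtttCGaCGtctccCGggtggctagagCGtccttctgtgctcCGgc

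Uchl1 held 7 CG dinucleotides in 250 bases (2.80 per 100 bases), Uchl3 held 8 in 175 bases (4.57 per 100 bases) and Uchl5 held 22 in 206 bases (10.7 per 100 bases). The windows printed for Uchl3 and Uchl5 are thus shorter than that for Uchl1. In windows of 250 bases, Uchl1, Uchl3 and Uchl5 held 7, 15 and 30. Uchl4, which also did not pass the test, held 0 in its window of 250 bases, the fewest among the members with an entry, so CG content did not separate Uchl1 from the other Uchl genes. Over the 250 bases before the start, the 42 members with an entry had a median of 22.5 CG dinucleotides and the 32851 promoters in the table a median of 6. Uchl1 was thus among the members with few of them, at rank 8 of 42 from the lowest, with a GC content of 48.8% against a member median of 64.4%. The letters GGGCGG, the core of a GC box, occurred on either strand in 64.3% of the member windows and 32.7% of all windows. TATAA occurred in 7.14% of member windows and 22.8% of all, and CCAAT in 23.8% and 33.8%. None of these 3 motifs was found in the Uchl1 window, which says only that these letters are absent there.

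The other Uchl genes did not pass the test. Uchl3, a hydrolase of ubiquitin and of the related modifier NEDD8, gave 11.81, 11.47, 11.69 and 11.85 on Mrp4-null 1 to 4 and 11.73, 11.72, 11.68 and 11.78 on wild-type 1 to 4. The wild-type values lay inside the range of the Mrp4-null values, and the difference was -0.02 (95% interval -0.24 to 0.20). Uchl4 differed by -0.08 (95% interval -0.39 to 0.22), and as it is a close copy of Uchl3, signal shared between their probes was not tested. Uchl5, which binds the proteasome, differed by -0.04 (95% interval -0.22 to 0.13). These 3 intervals stayed inside a 1.5-fold change in either direction. Uchl3 lies on chromosome 14, as does Abcc4, and limma called none of the 4 neighbours of Uchl3 that had a retained probe among 20 gene table entries. One of these 4, Lmo7, had an unadjusted p under 0.05, at -0.43 (limma adjusted p = 0.603).

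**Figure D1:**
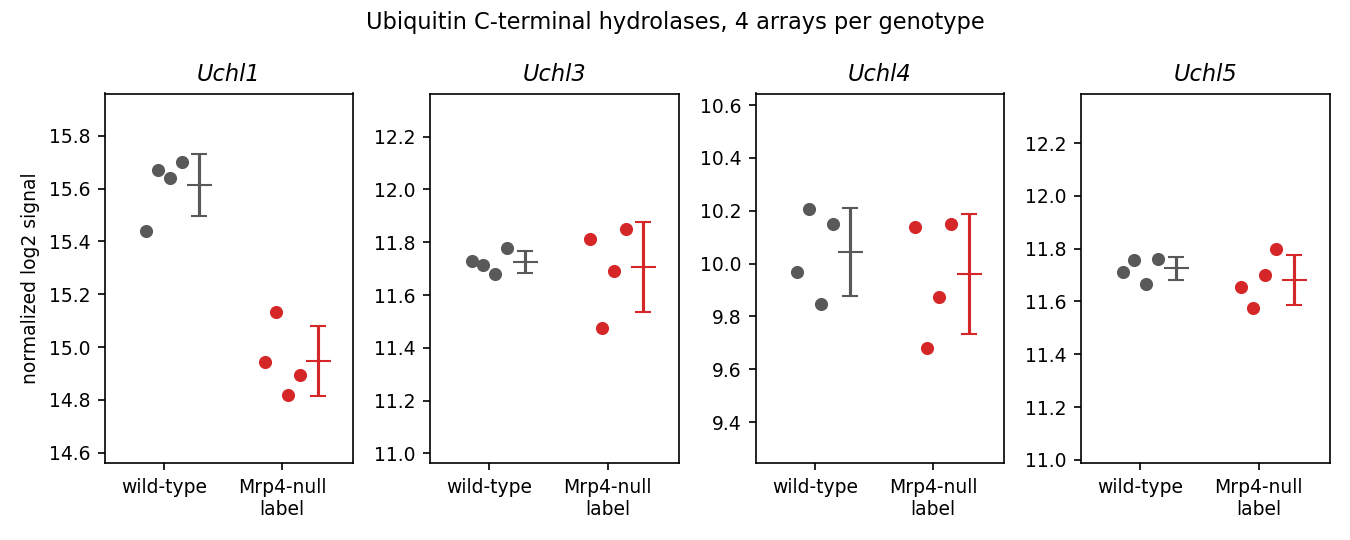
Normalized log2 signal of the 4 Uchl genes on each array, with the arrays of each genotype in order of sample number, and the mean and SD of 4 arrays as a bar at the right of each group. Each panel spans the same 1.4 log2 units; the genotypes are apart for Uchl1 and overlap for Uchl3, Uchl4 and Uchl5.

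Across the families, limma called 1 of 84 member probes and 1 of 49 members. Over all retained probes the called share was 0.545%, with 0.289% lower and 0.256% higher, and 0.652% of named genes were called by any probe and 0.572% by the probe with the highest mean signal. The local pooled error test also called Uchl1 alone among members, and 0.626% of all probes. Unadjusted p was under 0.05 for 2 of 84 member probes (2.38%), Uchl1 and 1 probe of Usp29, against 6.46% of all retained probes. The genotypes did not overlap for 1 of 84 member probes, against 4.79% of all. The mean was lower on the arrays labelled Mrp4-null for 54 of 84 member probes (64.3%), against 53.2% of all. With 1 probe for each gene, the median difference was -0.02 over members and -0.01 over all genes, and the median size of the difference was 0.042 over members and 0.075 over all. The median SD within a genotype was 0.15 over members and 0.16 over all genes.

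Apart from Uchl1, member differences ran from -0.37 to 0.45, and the smallest adjusted p among them was 0.744. Precision differed between members. The 95% interval lay inside a 1.5-fold change in either direction for 66 of 84 member probes, 78.6% against 77.2% of all retained probes, and for 41 of the 49 probes that represent a gene by the highest mean signal. The other 8 were those of Uchl1 and of Usp18, Usp25, Usp35, Usp36, Usp37, Usp44 and Usp49, and apart from Uchl1 their intervals held both no change and a change of 1.5-fold.

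**Figure D2:**
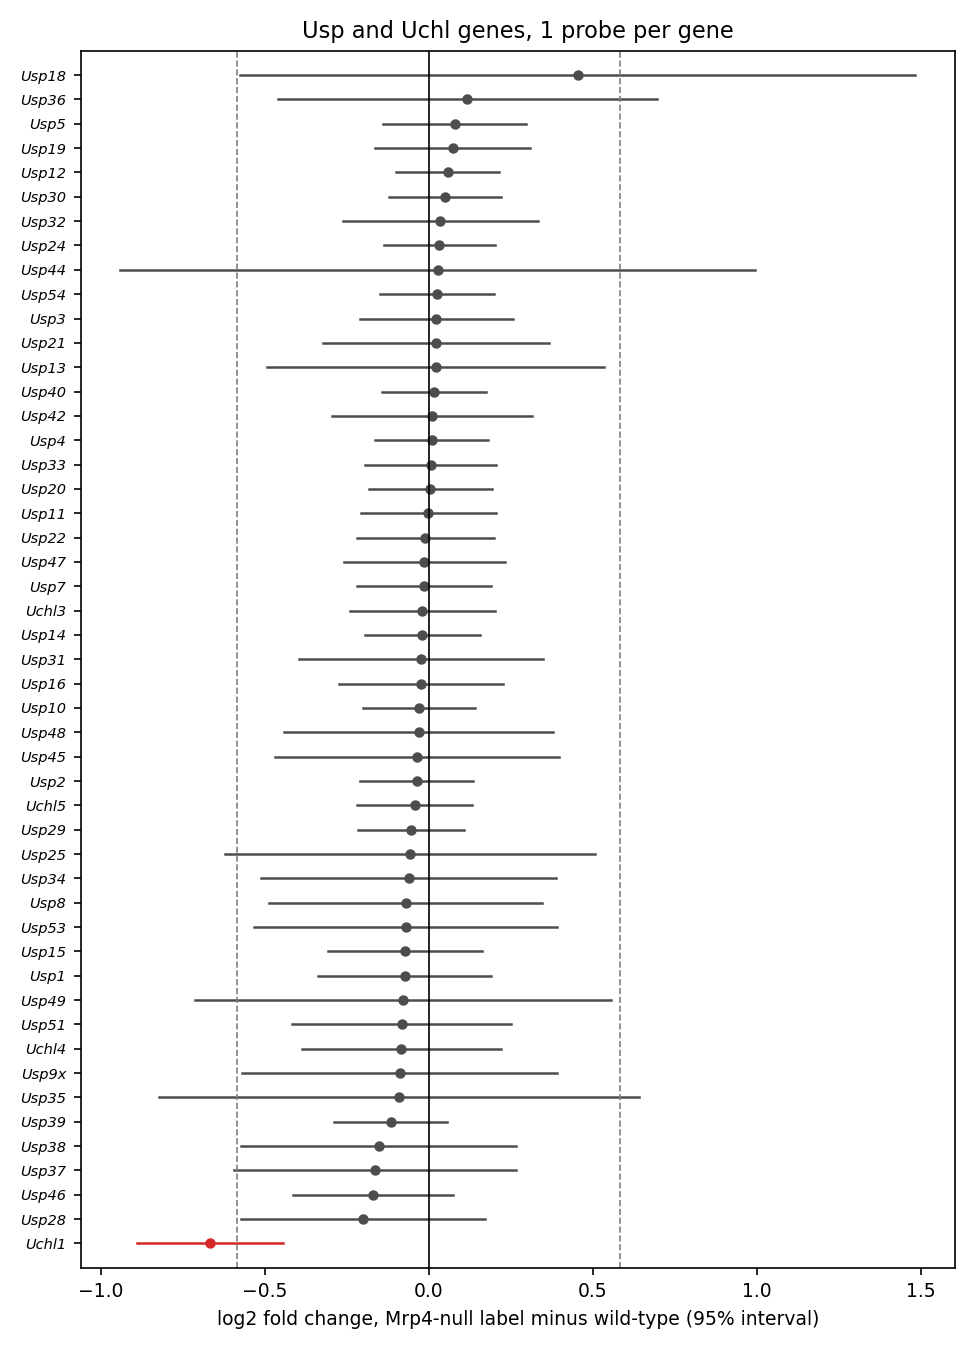
Log2 difference, Mrp4-null label minus wild-type, with its 95% interval for the probe with the highest mean signal of each of the 49 retained members, ordered by the difference. Dashed lines mark a 1.5-fold change; Uchl1, at -0.67, is the single called member, and Usp18 and Usp44 have the widest intervals.

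Deubiquitinases of the proteasome and of free ubiquitin chains gave small differences in the 4 genes listed, with limma and the local pooled error test both calling 0 of 4 and no probe at an unadjusted p under 0.05. Limma called 0.652% of all named genes, the local pooled error test called 0.626% of probes, and 6.46% of probes had an unadjusted p under 0.05, so a count of 0 in this or a later role list is close to the background and is not a result about the list. Usp14, which trims ubiquitin from substrates at the proteasome, had 3 probes at -0.02, -0.02 and -0.07. The probe with the highest signal gave 11.94 to 12.10 on the Mrp4-null arrays and 11.97 to 12.14 on the wild-type arrays, so the genotypes overlapped. Usp5, which takes apart unanchored ubiquitin chains, had probes at 0.08 and 0.04. Usp13, its close relative, had probes at 0.02 and -0.11.

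Members grouped by the WD-repeat protein WDR48, which activates USP1, USP12 and USP46, also had 0 of 3 called by either test and 0 with an unadjusted p under 0.05. Usp1, which acts on the DNA repair proteins FANCD2 and PCNA, differed by -0.07 (95% interval -0.34 to 0.19). The brightest probes of Usp12 and Usp46 differed by 0.06 and -0.17, and their second probes by -0.16 and -0.07. Wdr48 and 10 other listed partners of members, among them the proteasome receptor Adrm1 and the SAGA subunit Eny2, had 0 of 11 called by limma or by the local pooled error test and 0 with an unadjusted p under 0.05.

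Usp18, which removes the interferon-induced modifier ISG15, had the largest positive difference among members and the widest spread. It gave 6.65, 7.09, 8.91 and 6.79 on Mrp4-null 1 to 4 and 6.62, 6.98, 6.90 and 7.11 on wild-type 1 to 4. Mrp4-null 3 stood above all other arrays, and the remaining Mrp4-null arrays lay inside the wild-type range. The difference was 0.45 (SE 0.45, 95% interval -0.57 to 1.48) with all arrays and -0.06 without Mrp4-null 3. Markers of several cell types were also high on that array. Of 5 listed microglia markers, 4 had their highest value there, among them Aif1 (8.84, against 7.48 to 7.92 on the other arrays), C1qa (8.83 against 7.49 to 7.68) and Cx3cr1 (9.75 against 8.85 to 9.41), whereas P2ry12 did not. Their summed linear signal was 1933 on Mrp4-null 3 and 986 to 1188 on the others. Gfap, 1 of 2 listed astrocyte markers, gave 9.05 there and 7.07 to 7.63 elsewhere, and the other, Pax2, was not highest there. The 5 endothelial markers had a summed signal of 1748 on Mrp4-null 3 and 1201 to 1513 on the others, with Vwf alone of the 5 highest there (9.68 against 8.34 to 8.89). Of 7 Muller glia markers, Dkk3, Kcnj10 and Vim were highest there, but the sum of that list was not. The horizontal and amacrine list also had its highest sum on Mrp4-null 3, and the cone and ganglion cell lists had their lowest. The part of these cells in the Usp18 value was not tested. Ube2l6, the E2 enzyme that conjugates ISG15, did not have its highest value on that array; it gave 10.50, 10.26, 10.48 and 10.43 on Mrp4-null 1 to 4 and 10.11, 10.22, 10.22 and 10.19 on wild-type 1 to 4. Its genotypes did not overlap, and the difference of 0.23 did not pass (limma adjusted p = 0.569). Other members with roles in innate signalling gave -0.06 for Usp25 and 0.01 for Usp4, and the 5 probes of Usp15 ran from -0.22 to 0.02. In that list of 4, limma and the local pooled error test called 0 genes, and 0 had an unadjusted p under 0.05.

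Usp30, an enzyme of the mitochondrial outer membrane that opposes the removal of damaged mitochondria, gave 11.24, 11.14, 11.21 and 11.08 on Mrp4-null 1 to 4 and 11.18, 11.12, 11.13 and 11.04 on wild-type 1 to 4. The genotypes overlapped and the difference was 0.05 (95% interval -0.12 to 0.22). Usp2, which acts on proteins of the circadian clock, had probes at -0.04 and -0.06. Lists for endosome and membrane traffic (5 retained), DNA repair, replication and cell cycle (10 retained), chromatin (6 retained) and enzymes annotated as without catalytic activity (3 retained) had 0 genes called by limma or the local pooled error test and 0 with an unadjusted p under 0.05. Their median differences were 0.01, -0.02, -0.02 and -0.07.

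Usp9x and Usp9y are copies of 1 deubiquitinase on the X and Y chromosomes, and they were set beside sex-linked transcripts because these differed between the genotypes. Probes of the Y-linked genes Ddx3y, Eif2s3y and Uty were well above background on wild-type 2, 3 and 4 and on no Mrp4-null array. Xist, which is made from the inactive X chromosome, was well above background on all 4 Mrp4-null arrays and on wild-type 1 and 2. Wild-type 2 thus had both Xist (linear signal 507) and Y-linked signal (Uty 230). Whether this sample held RNA of more than 1 mouse was not tested. The Usp9y probe stayed at linear signals from 2.71 to 3.33 on all 8 arrays, including those with Y-linked signal. Usp9x gave 9.43, 10.26, 9.66 and 9.69 on Mrp4-null 1 to 4 and 9.54, 9.65, 10.28 and 9.92 on wild-type 1 to 4, a difference of -0.09 (95% interval -0.57 to 0.39). Usp34, which acts on the Wnt pathway protein axin, had probes at -0.06 and -0.05, and Usp24 differed by 0.03. None of the 3 retained genes of this Wnt and Hippo list was called by limma or the local pooled error test, and 0 had an unadjusted p under 0.05. For Uchl1, wild-type 1, the wild-type array without Y-linked signal, gave 15.44, the lowest wild-type value but above the highest Mrp4-null value of 15.13. With Y-linked signal on 3 of 4 wild-type arrays and on no Mrp4-null array, sex-linked signal and genotype largely cannot be told apart, and its part in the Uchl1 difference was not tested.

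For 25 of the 49 members, more than 1 probe was retained, which gave a second reading of the same gene. Of these 25, 8 had all probes lower, 5 had all probes higher and 12 had probes that differed in sign. Usp29, an imprinted gene expressed from the paternal allele, had the widest range, 0.31. Its dimmer probe gave 5.00, 5.52, 4.96 and 5.44 on Mrp4-null 1 to 4 and 5.38, 5.54, 5.80 and 5.66 on wild-type 1 to 4, a difference of -0.37 (limma adjusted p = 0.744). Its brighter probe differed by -0.05 (95% interval -0.22 to 0.11). Usp39, a splicing factor that lacks the catalytic residues of its family, was lower in all 3 probes, at -0.12, -0.17 and -0.22, with limma adjusted p-values from 0.930 to 1.00. Usp28 and Usp37, which stabilize proteins of the cell cycle, had 1 probe each, at -0.20 and -0.16. The 3 probes of Usp53 ran from -0.07 to -0.06, and the pair for Usp54 gave 0.03 and -0.24.

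**Figure D3:**
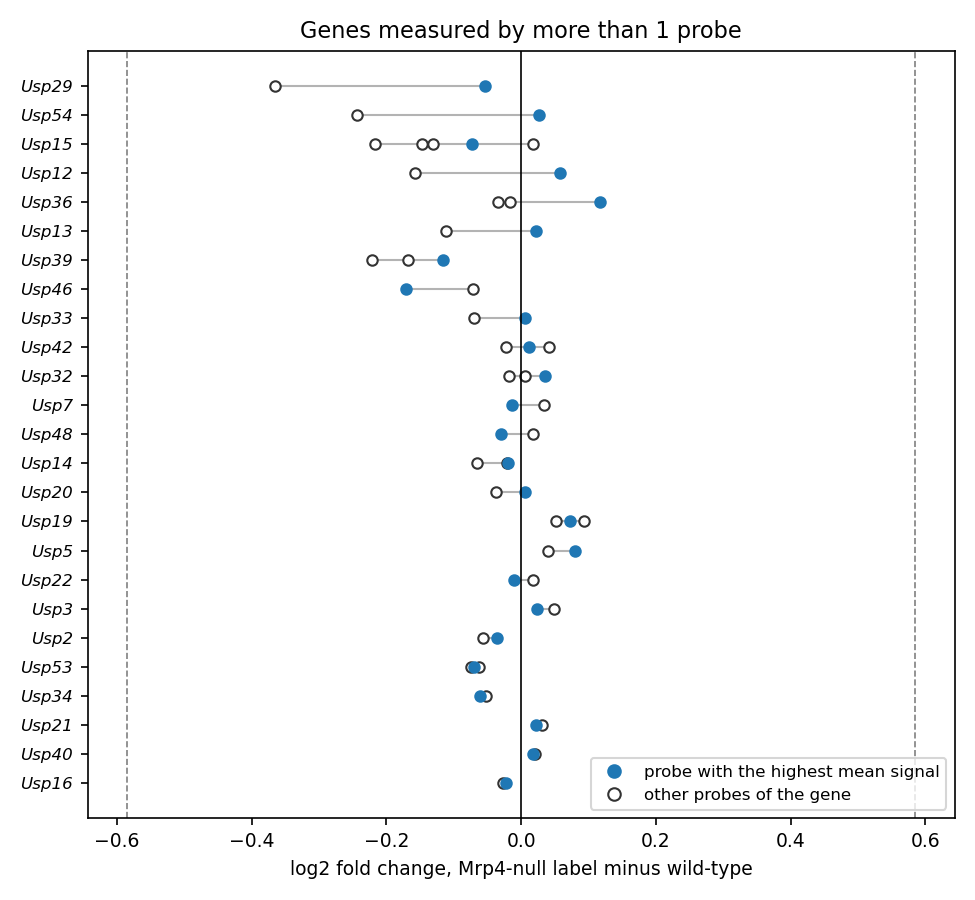
Log2 difference, Mrp4-null label minus wild-type, of each probe of the 25 members with more than 1 retained probe, ordered by the range between probes. Filled points are the probe with the highest mean signal, open points the other probes, and dashed lines a 1.5-fold change; the range is widest for Usp29 (0.31), and every point lies inside the dashed lines.

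Extreme values among members often lay on 1 array. Mrp4-null 2 had the highest value of the 8 arrays in 23 of 84 member probes and the lowest in 28, and over all retained probes it was highest in 23.6% and lowest in 24.0%. For 6 of the 25 members with several probes (24.0%), it was highest on 1 probe and lowest on another, against 13.5% of 5895 genes over the whole array. These 6 were Usp7, Usp14, Usp32, Usp33, Usp42 and Usp54. In Usp32, a membrane-associated enzyme, 1 probe gave 10.78 on Mrp4-null 2 and 9.60 to 10.49 elsewhere, while the brightest probe gave 12.26 on it and 12.38 to 12.77 elsewhere. The next most frequent array with such opposite extremes was Mrp4-null 4, in 2 of 25 members. Without Mrp4-null 2, the genotypes did not overlap in 8 of 84 member probes (9.52%) in place of 1, against 10.9% of all probes, and the median member difference was 0.01 in place of -0.02. Before normalization, the 75th percentile of linear signal was 497 on Mrp4-null 2, 514 on wild-type 3 and up to 786 on the other arrays. Deviations from the genotype means correlated at 0.71 between Mrp4-null 2 and wild-type 3. What set Mrp4-null 2 apart was not tested.

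Uchl1 lies on chromosome 5, and among the 20 gene table entries nearest to it, 5 had a retained probe. Of these, 2 had a called probe, both lower, where limma called 0.652% of all named genes by any probe and 0.289% of all probes lower. By accession-named probes alone, which are those behind the share of named genes, 1 of 5 was called. The other call is on a probe that the study listed from these same samples, so it was chosen for its change and is not independent evidence. Nsun7, a putative RNA methyltransferase gene, had 1 probe at -0.84 (SE 0.14, limma adjusted p = 0.0445) and another at -0.69 (limma adjusted p = 0.327). The Nsun7 call was lost in the local pooled error test (adjusted p = 0.380) and with normexp background correction, which gave -0.48. A probe that the study assigns to Apbb2, which encodes an adaptor that binds the amyloid precursor protein, differed by -2.25 (SE 0.30, limma adjusted p = 0.0148). It was lower on all 4 Mrp4-null arrays than on any wild-type array, whereas 2 other probes that the gene table assigns to Apbb2 differed by -0.06 and -0.04. Limch1, the nearest entry on the other side, had probes at -0.12 and 0.07, Tmem33 at -0.03 and -0.08, and Rbm47 was at 0.96 (limma adjusted p = 0.722). Calls next to Uchl1 were thus made on 1 of several probes of each neighbour, and both were lost when Mrp4-null 1 or any 1 wild-type array was left out.

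**Figure D4:**
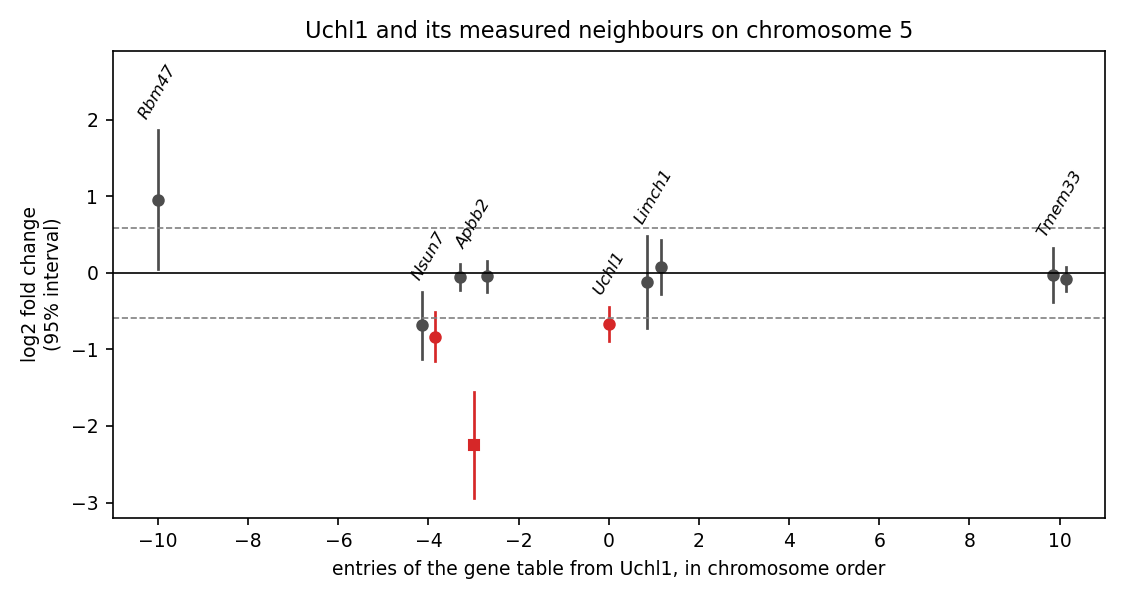
Log2 difference with its 95% interval for each retained probe of Uchl1 and of the 10 gene table entries on each side, against the number of entries from Uchl1 along chromosome 5. Red marks called probes, the square the probe that the study assigns to Apbb2 (-2.25), and dashed lines a 1.5-fold change; other Apbb2 probes lie near 0.

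Beyond both families, the ubiquitin system gave 0 called genes in each of 6 lists, over the probes that an accession names, by limma and by the local pooled error test, against the 0.652% of named genes that limma called. Of 36 retained deubiquitinases of other families, 23 were lower by mean, and the median difference was -0.03. Cops6, a subunit of the COP9 signalosome, was at -0.21 in its brighter probe (limma adjusted p = 0.729), and 1 probe of Otub1, an ovarian tumor family enzyme, was at -0.26 (limma adjusted p = 0.339) while its brighter probe was at -0.07; these 2 were the genes with an unadjusted p under 0.05. Cyld, which removes linear and K63-linked chains, gave 11.46, 11.31, 11.46 and 11.47 on Mrp4-null 1 to 4 and 11.60, 11.55, 11.55 and 11.73 on wild-type 1 to 4. Its genotypes did not overlap in that probe, and the difference was -0.18 (limma adjusted p = 0.775). The other 2 accession-named Cyld probes differed by -0.17 and 0.05.

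One further probe bears on the Cyld result. The study lists it as Cyld, under an identifier that is cut short and fits the start of 1 probe on the array, while the gene table does not name it. It gave 5.27, 5.57, 5.38 and 5.39 on Mrp4-null 1 to 4 and 7.26, 6.97, 7.67 and 7.52 on wild-type 1 to 4. All Mrp4-null arrays lay below all wild-type arrays, and the difference was -1.95 (SE 0.15, limma adjusted p = 0.00067), a call that the local pooled error test also made. With normexp background correction the difference was -1.08, and the call was kept under all alternatives run for it. With this probe counted, 1 of the 36 deubiquitinases of other families was called lower. The study listed this probe from the same samples, so the call is not independent evidence of the direction, and the 4 probes of Cyld did not move alike. Which transcript each of them reads was not tested.

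Among conjugating enzymes, 27 of 33 retained E2 genes were lower by mean, with a median of -0.06, and 1 had an unadjusted p under 0.05, which was Ube2l6 with the positive difference given above. Over all probes, 53.2% were lower by mean and 4.79% had arrays that did not overlap between genotypes. Of the 33 genes, the arrays did not overlap for 2 that were lower and 1 that was higher. The summed linear signal of the list was 163023 to 170204 on the Mrp4-null arrays and 170472 to 174859 on the wild-type arrays, which do not overlap. The 37 retained proteasome genes had a median of -0.03, and the 4 genes that encode ubiquitin itself ran from -0.05 to 0.02. Uba1 and Uba6, the retained E1 genes, had a median of -0.06. No gene of these proteasome, ubiquitin or E1 lists had an unadjusted p under 0.05.

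Because Uchl1 marks neurons, the listed cell type markers were read beside it. Over all features, limma called 0.652% of named genes, the local pooled error test called 0.626% of probes, 6.46% of probes had an unadjusted p under 0.05 and 53.2% were lower by mean, which is the background for each list here. Of 10 ganglion cell markers, 9 were lower by mean under the Mrp4-null label, and their median was -0.14, with 0 called by limma or the local pooled error test, and 2 with an unadjusted p under 0.05. These 2 were Pou4f2 at -0.35 (limma adjusted p = 0.558) and Sncg at -0.26 (limma adjusted p = 0.609). The summed linear signal of the list was 80690.0 to 83705.1 on the Mrp4-null arrays and 86299.8 to 96449.7 on the wild-type arrays, which do not overlap. Among the sums of the 11 cell lists this was the single one without overlap, and among those of the 6 ubiquitin system lists it was that of the E2 genes. The 10 horizontal and amacrine cell markers had 5 lower and 5 higher, with a median of 0.01, 0 called by either test and 0 with an unadjusted p under 0.05. Bipolar cell markers were higher in 6 of 7, with a median of 0.13 and 3 with an unadjusted p under 0.05, and Grm6, the glutamate receptor of ON bipolar cells, was at 0.24 (limma adjusted p = 0.362). Rod markers were higher in 5 of 8 (median 0.03), cone markers lower in 4 of 6 (median -0.08) and Muller glia markers higher in 4 of 7 (median 0.02), with 0, 1 and 1 at an unadjusted p under 0.05. That cone marker was Arr3, higher in both probes at 0.34 and 0.23 (limma adjusted p = 0.192 and 0.746). That Muller glia marker was Aqp4, lower in both probes at -0.39 and -0.36 (limma adjusted p = 0.362 and 0.202). Microglia markers were lower in 3 of 5 (median -0.10), astrocyte markers higher in 2 of 2 (median 0.37), endothelial markers lower in 3 of 5 (median -0.22) and pigment epithelium markers higher in 3 of 4 (median 0.08), with 0, 0, 1 and 0 at an unadjusted p under 0.05. Neither limma nor the local pooled error test called a gene of these 8 lists. Lens markers, which belong to tissue next to the retina, were lower in 9 of 9 with a median of -1.44; limma called 0, the local pooled error test 9 (against 0.626% over all probes), and 3 had an unadjusted p under 0.05 (against 6.46% over all probes). Their summed signal was 3009 to 23438 on the Mrp4-null arrays and 8426 to 50735 on the wild-type arrays. The part of these cell types in the Uchl1 difference was not tested.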

How the data were processed

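Retinal RNA was measured on 8 one-color Cy3 arrays (Agilent SurePrint G3 Mouse). The authors deposited scanner output, whose spot intensity had been background-subtracted and detrended by Feature Extraction 11.0.1.1 but not normalized between arrays, and a table that equals the mean intensity of each probe. Control and outlier spots were left out and log2 intensity was averaged per probe. Probes well above background throughout a genotype (with at least 3 arrays measured there and 2 in the other) were quantile normalized. Genotypes were compared with limma 3.58.1 in R 4.3.3 (lmFit and eBayes, genotype only, Benjamini-Hochberg adjustment over all retained probes). Calls were made at 1.5-fold or more with an adjusted p under 0.05. A gene was called if any probe was. The fit was tested on simulated data.

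Accessions named 58.3% of the probes, and 1 Apbb2 and 1 Cyld probe were named from the study's list. The array design is of an earlier build than the gene table, so table coordinates served only for RefSeq sequences and gene order. Genes named are Abcc4, the Uchl genes, called members, the 10 uncalled members with the smallest p, 5 role lists and called neighbours; others were named after their values were seen. Members and lists were chosen with earlier results of these data known. Alternatives were other normalizations, filters, tests and thresholds, a sample number block and each array left out. Leaving out Mrp4-null 2 and wild-type 3 together was chosen after seeing the data. The number of arrays limits the precision.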

Additional observations from a re-analysis of the deposited data

Results flagged for a closer look

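In 3 of 84 groups of 4 arrays that were screened, each with 1 probe of Abcc4 or of a named member, a single array lay far from the other 3 by Dixon's criterion, which chance meets in about 1 in 20 groups. For Usp34, 1 probe gave 9.35 on Mrp4-null 3 and 9.17 to 9.19 on the other Mrp4-null arrays, a gap of 0.868 of the range. For Usp39, 1 probe gave 11.74 on wild-type 1 and 11.59 to 11.61 on the other wild-type arrays, a gap of 0.890 of the range. For Usp5, 1 probe gave 13.44 on wild-type 3 and 13.25 to 13.28 on the other wild-type arrays, a gap of 0.8294 of the range. No explanation of these values was tested.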

How the results depend on the processing

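Uchl1 was lower under every alternative that was run. It was no longer called with each array scaled to its 75th percentile (-0.69), with the sample number as a block (-0.67, limma adjusted p = 0.203) and without Mrp4-null 2 and wild-type 3 together (-0.71, limma adjusted p = 0.0621, chosen after seeing the data), so under each of these 3 alternatives 0 members were called, by any probe or by the representing probe. Leaving out each array in turn gave -0.73 to -0.62, with 0 to 1 members called by any probe and 0 to 1 by the representing probe. The same omissions gave 1 to 8 member probes with arrays apart (1.19% to 9.52%, against 6.12% to 10.9% of all probes). The joint omission gave 8 (9.52%, against 13.9% of all probes). Over the omissions of 1 array, the median member difference was -0.0418 to 0.0104, and 0 to 2 neighbours of Uchl1 were called. Called neighbours, the probe that the study assigns to Apbb2 included, numbered 2 in the main analysis, 1 with 1 probe for each gene, 1 in the local pooled error test, 1 with normexp correction, 0 with no filter on dim probes and 0 with the block. What caused these changes was not tested, and the omissions also had fewer arrays. Whether sample numbers pair the arrays is not given by the labels or the methods. Deviations from the genotype means correlated at -0.29, -0.69, 0.03 and 0.41 for numbers 1 to 4, and the block lowered the called probes from 202 to 71. Abcc4 kept its direction and call, and the pathway lists, by accession-named probes, kept counts of 0. Single omissions gave 117 to 188 called probes, over 1.5 times fewer than 202 without wild-type 2 (131), 3 (129) or 4 (117). The joint omission gave 128, and a fold change of 1.5 alone 699. The number of arrays limits what can be told for members with wide intervals.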
